A study of Arabidopsis thaliana with 15 samples.

Results

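Divergent non-gene start clusters are places where capped RNA begins on the strand opposite to a gene and runs away from a start of that gene. That start can lie within the annotated gene, and the RNA then begins antisense inside it. They were read from cap analysis of gene expression (CAGE), in which the capped 5′ end of an RNA gives a short sequence tag and neighbouring tags on 1 strand are joined into a tag cluster (TC). The tables do not say which TC belongs to which gene, so each gene was linked to the run of neighbouring TCs on 1 strand whose counts add up to its own count in all 15 libraries. A TC was taken as divergent when it was linked to no gene, lay on nuclear chromosomes 1 to 5, and had a linked TC on the other strand head to head, with midpoints at most 600 bp apart. This rule found 438 divergent TCs among 26677 TCs in all, of which 2712 on the nuclear chromosomes were linked to no gene. They faced 413 gene TCs in 395 genes, and 50 of them shared the facing TC with another divergent TC, so they are not all independent starts. The rule used positions and the match of counts, and no difference between groups.

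All libraries came from pools of 10 Arabidopsis thaliana seedlings (Col-0), taken whole at an age of 14 days, in liquid medium with 3.3 µM flg22 and 0.77% DMSO. Flg22 is a fragment of flagellin, the protein of bacterial flagella, and plants answer it with immune signalling. The 5 groups of 3 libraries were rrp4-2 seedlings at 30 min, hen2-4 seedlings at 30 min, wild type (wt) seedlings at 30 min, hen2-4 seedlings at 10 min and wt seedlings at 10 min after the peptide. In hen2-4 the gene HEN2 is interrupted by a T-DNA, in rrp4-2 the allele of RRP4 is a weak one, and each mutant is 1 line. Replicate pools came from the same batch of seed and different plates, so the spread between replicates covers pools and not separate lines. Genotype and batch of seed cannot be told apart, and no untreated library was used here.

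Promoters of many eukaryotes start RNA in both directions. The RNA that runs away from the gene is usually short and non-coding, and it is removed soon after it is made. Much of that removal falls to the exosome, a complex that degrades RNA from its 3′ end. RRP4 is a subunit of the core of the complex, in the nucleus as in the cytoplasm. HEN2 is a helicase of the nucleoplasm that delivers transcripts to it. Divergent transcription has been described as less common in plants than in mammals.

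Not all of the divergent TCs lay upstream of the gene they faced. Of the 438, 259 lay outside the annotated body of the gene they faced, at a median of 268 bp upstream of its annotated start (12.5 to 738 bp). The other 179 lay inside the annotated body of that gene, antisense to it, a median of 746 bp downstream of the annotated start. The gene TC they faced thus also lay downstream of that start. Over all genes with an annotated position, 53.5% had a TC within 100 bp of the annotated start. The nearest TC lay a median of 90.5 bp downstream of it. Outside and inside thus follow the annotation and not the start in use. The facing TC was the gene's most used one for 222 of the 259 outside and for 48 of the 179 inside. Not all were free of annotation on their own strand, since 44 lay in an annotated gene that the count table did not link to them: 19 in a long non-coding RNA gene, 18 in a protein-coding gene, 5 in a miscellaneous RNA gene, 1 in a snoRNA gene and 1 in a transcribed pseudogene. With those whose strand carried an annotated gene start within 500 bp downstream, 75 had such a gene at hand and 363 had none.

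The libraries held 14.1 to 25.1 M tags in TCs, of which 11542 to 52436 per library fell in the divergent TCs, and replicates of a group correlated across TCs with r of 0.949 to 0.980. HEN2 stood at 4.05 to 7.72 CPM (counts per 1 M tags, with TMM library sizes) in hen2-4 at 30 min and 36.7 to 57.1 CPM in wt at 30 min. At 10 min it stood at 8.71 to 10.1 CPM in hen2-4 and 35.4 to 48.7 CPM in wt, so the labels of that line held. RRP4 is still transcribed in rrp4-2, so its level checks nothing. Root and leaf markers were present, and none of the 3 markers of pollen and seed was among the genes counted, so no level of them was read. The summed level of 3 leaf markers was 5307 to 5410 CPM in rrp4-2 and 4635 to 6378 CPM in hen2-4 at 30 min, below 7108 to 8511 CPM in wt, and its part in the results below was not tested. Single libraries stood apart in the divergent TCs. Replicate 1 of rrp4-2 held 26 divergent TCs at over 3 times the level of both other replicates, replicate 3 of wt at 30 min held 22 and replicate 1 of hen2-4 at 10 min held 16, while every other library held 0 to 8. Counts that rest on these libraries are given with and without them.

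Sequences between a divergent start and its gene are shown for a few pairs, chosen by hand and grouped by the letters they hold. Each runs 5′ to 3′ on the strand of the gene, with coordinates of the RefSeq assembly TAIR10.1 (the files use TAIR10, and nuclear chromosomes are equally long in both), and begins at the midpoint of the divergent TC. It ends at the last base before the annotated start of the gene or, for UGT73B4, at the midpoint of the gene's TC, which comes first. A first set holds the letters of a TATA box on both strands. Capitals mark TATAAA, which reads toward the gene, and TTTATA, which is TATAAA on the strand of the divergent RNA. In the sequence of AT5G54860 they overlap in a single run, and its further capitals mark GTCAA, the reverse complement of the core letters TTGAC of the W-box that WRKY factors bind.

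AT3G28140 (chr3:10470172-10470391, plus strand): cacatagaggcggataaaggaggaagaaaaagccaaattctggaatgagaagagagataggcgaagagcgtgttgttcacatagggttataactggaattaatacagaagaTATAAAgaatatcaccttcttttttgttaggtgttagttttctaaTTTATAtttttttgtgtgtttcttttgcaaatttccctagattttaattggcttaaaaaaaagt
SOT18 (chr1:27862727-27862813, plus strand): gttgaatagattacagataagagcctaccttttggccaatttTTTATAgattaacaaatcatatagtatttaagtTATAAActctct
AT5G54860 (chr5:22284258-22284424, plus strand): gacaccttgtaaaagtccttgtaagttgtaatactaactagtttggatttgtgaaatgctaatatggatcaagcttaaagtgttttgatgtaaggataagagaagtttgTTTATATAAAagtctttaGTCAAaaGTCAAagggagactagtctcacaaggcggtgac

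In AT3G28140 the TATAAA of the gene strand began at base 112 and the TTTATA at base 157, and in SOT18 they began at bases 76 and 43. A second set comes from genes of the immune response or of detoxification, with the core letters TTGAC or GTCAA of the W-box in capitals. CRK11 held 6 such cores, SNC1 held 1 and UGT73B4 held 1.

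SNC1 (chr4:9505973-9506173, minus strand): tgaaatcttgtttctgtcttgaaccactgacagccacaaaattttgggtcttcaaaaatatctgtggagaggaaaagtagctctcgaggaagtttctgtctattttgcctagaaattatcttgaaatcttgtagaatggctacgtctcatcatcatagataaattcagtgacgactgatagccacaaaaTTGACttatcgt
CRK11 (chr4:12143859-12144140, minus strand): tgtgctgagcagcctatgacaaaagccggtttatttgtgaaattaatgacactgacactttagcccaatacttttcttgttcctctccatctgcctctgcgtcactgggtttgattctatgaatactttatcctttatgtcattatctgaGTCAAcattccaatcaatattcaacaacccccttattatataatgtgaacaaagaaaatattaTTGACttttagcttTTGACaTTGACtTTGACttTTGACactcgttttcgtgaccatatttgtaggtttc
UGT73B4 (chr2:6761336-6761628, plus strand): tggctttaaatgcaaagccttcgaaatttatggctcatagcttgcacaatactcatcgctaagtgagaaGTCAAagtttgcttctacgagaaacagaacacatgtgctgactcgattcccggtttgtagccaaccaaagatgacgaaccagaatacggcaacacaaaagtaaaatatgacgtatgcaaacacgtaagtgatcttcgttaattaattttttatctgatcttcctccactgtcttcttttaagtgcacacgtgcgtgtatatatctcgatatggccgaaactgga

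The last set, of a divergent TC with high counts in the mutants and of one with almost none in wt at 30 min, held neither set of letters.

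AT2G18740 (chr2:8122942-8123194, plus strand): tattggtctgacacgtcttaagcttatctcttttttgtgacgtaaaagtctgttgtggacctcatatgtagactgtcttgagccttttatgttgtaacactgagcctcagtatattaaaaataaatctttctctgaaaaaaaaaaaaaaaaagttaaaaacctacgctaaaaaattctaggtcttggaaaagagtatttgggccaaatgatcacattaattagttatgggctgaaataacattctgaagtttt
AT3G49140 (chr3:18215744-18215886, minus strand): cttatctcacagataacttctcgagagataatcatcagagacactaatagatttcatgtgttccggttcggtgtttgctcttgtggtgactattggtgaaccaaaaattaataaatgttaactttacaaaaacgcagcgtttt

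A match of letters is a description and not a site. Over all 438 divergent TCs, TATAAA stood on their own strand between 80 bases before and 20 after the midpoint in 12.8%, against 10.4% of the facing TCs and 15.6% of all gene TCs. In the 300 bases before the midpoint, TATAAA on either strand stood in 40% of divergent TCs, 41.4% of facing TCs and 49.4% of gene TCs. For TTGAC on either strand the shares were 55.9%, 55.9% and 51.1%. The full W-box TTGACC on either strand, from 200 bases before to 50 after the midpoint, stood in 16.2% of divergent TCs, 18.6% of facing TCs and 12.3% of gene TCs. Downstream of the start, the letters AATAAA of the canonical poly(A) signal stood on the own strand within 300 bases in 14.4% of divergent TCs, against 9.44% of facing TCs, 8.93% of gene TCs and 15.9% of the other non-gene TCs. The letters GGTAAG of a 5′ splice site stood there in 7.53% of divergent TCs (11.2% of those inside the facing gene and 5.02% of those outside it), against 5.81% of facing TCs, 5.53% of gene TCs and 5.28% of the other non-gene TCs. Windows of a divergent TC and its facing TC overlap, and these shares were not tested.

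Divergent TCs were weak and narrow next to the genes they faced. Their mean level over the 15 libraries had a median of 1.05 CPM (0.0171 to 175 CPM), against 5.76 CPM for the facing TCs, 7.37 CPM for the other gene TCs and 1.1 CPM for the other non-gene TCs. The facing TC was the stronger of the pair for 336 divergent TCs, and the divergent TC was the stronger for 102, of which 48 lay outside the gene and 54 inside it. Their median width was 66.5 bp against 122 bp for the facing TCs. The midpoints of a pair lay a median of 289 bp apart (11 to 598.5 bp), 345.5 bp for those outside the gene and 226 bp for those inside.

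The authors kept only TCs with 1 or more tags per 1 M tags (TPM) in at least 3 libraries. This limit bears on every count, summed level and named divergent TC that follows. Over the 15 libraries used here, 370 divergent TCs met this limit, but only 135 met it on the 6 wt libraries, while 350 met it on the 9 mutant libraries. So 220 met it through mutant libraries and not through wt libraries, and for these a higher level in a mutant is partly built into the selection. This holds also for named TCs whose wt levels all lie under 1 CPM. Many TCs were named only at a mean of 1 CPM over the 15 libraries, 9 of them mutant, which favours the same direction. The other non-gene TCs passed the same limit. Of the 438, 429 passed the filter of the test on low counts and 9 did not.

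Summed over the 438, the level of divergent TCs separated both mutants from wt in every library. The 438 include the 220 that met the limit of 1 TPM through mutant libraries and not through wt libraries. Part of the separation, and of the empty TCs in wt, was thus set by the selection. No sum was made for the 135 that met the limit on wt libraries. The sums were 2663, 2230 and 2230 CPM in rrp4-2 at 30 min, 1813, 1918 and 2270 CPM in hen2-4 at 30 min, and 725, 785 and 914.6 CPM in wt at 30 min. At 10 min they were 1862, 1568 and 1513 CPM in hen2-4 and 729.8, 721.3 and 746.9 CPM in wt. No mutant library overlapped a wt library of the same time. Without the single strongest divergent TC the sums were 1816 to 2266 CPM in rrp4-2, 1549 to 1765 CPM in hen2-4 at 30 min and 688 to 797.4 CPM in wt at 30 min, and 1468 to 1828 CPM in hen2-4 and 703.1 to 729.6 CPM in wt at 10 min. The 413 facing TCs summed to 35190 CPM in rrp4-2, 34320 CPM in hen2-4 and 37540 CPM in wt at 30 min on average, and to 36480 CPM in hen2-4 and 35450 CPM in wt at 10 min. Of the tags of both kinds, the divergent TCs thus took 5.86% to 7.26% in rrp4-2, 4.95% to 5.87% in hen2-4 and 1.77% to 2.60% in wt at 30 min, and 3.63% to 4.83% in hen2-4 and 1.87% to 2.16% in wt at 10 min. In a wt library 35 to 70 of the 438 had no tag at all, against 3 to 11 in a mutant library.

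**Figure D1:**
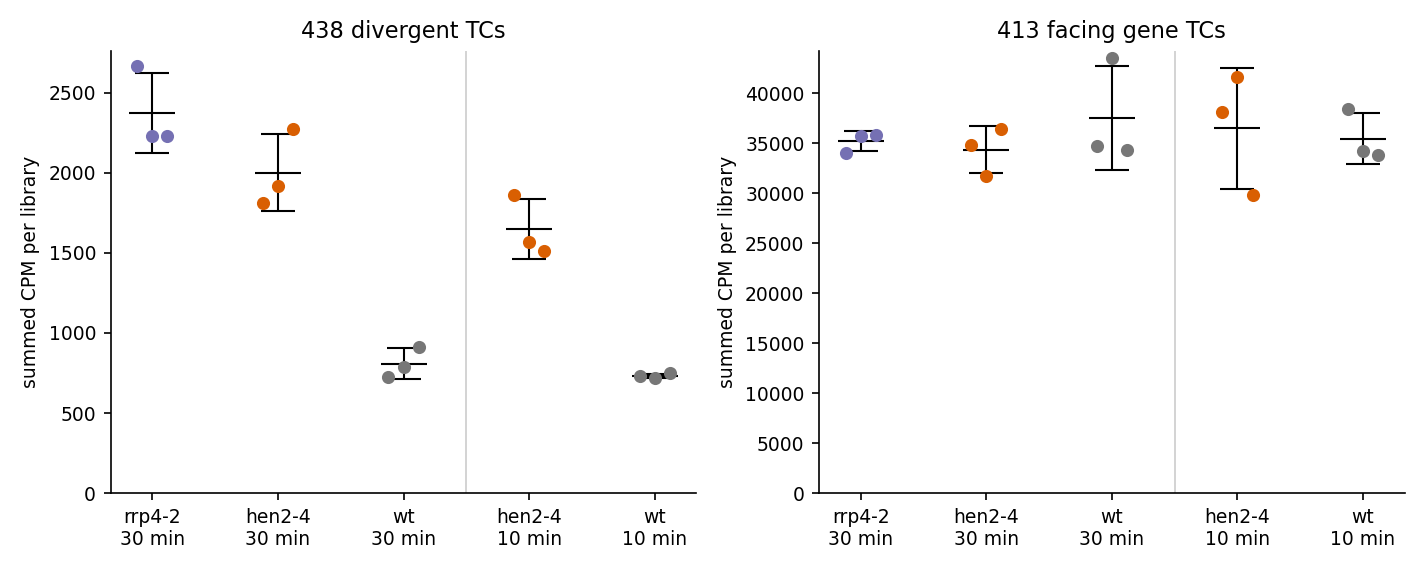
Summed level in CPM (y axis) of the 438 divergent TCs and of the 413 facing gene TCs in each library. Of the 438, 220 met the limit of 1 TPM through mutant and not wt libraries, which favours higher mutant sums. Points are libraries and bars the mean and SD of n = 3; the rrp4-2 and hen2-4 points lie above the wt points for the divergent TCs (1513 to 2663 against 721.3 to 914.6 CPM), and the groups overlap for the facing TCs.

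The first question was which divergent starts differed when the exosome or its helicase was impaired. The threshold for a call was an adjusted p of 0.05 or less (edgeR quasi-likelihood test, Benjamini-Hochberg over 26504 TCs) and a log2 fold change (FC) of at least 1 in size. In rrp4-2 against wt at 30 min, 233 of the 429 divergent TCs tested rose and 2 fell, where 6.59% of all TCs tested rose and 1.24% fell. The median log2 FC of the divergent TCs was 1.86, beside −0.03 over all TCs. In hen2-4 against wt at 30 min, 191 rose and none fell (4.75% and 0.313% of all TCs), with a median of 1.62 beside −0.04. In hen2-4 against wt at 10 min, 190 rose and 1 fell (5.11% and 0.268% of all TCs), with a median of 1.54 beside −0.02. The comparisons at 30 min share their wt libraries. Those at 10 and 30 min in hen2-4 share none, and 149 divergent TCs rose in both, of 190 at 10 min and 191 at 30 min. In none of the 3 comparisons were 164 called. Neither number was counted over all TCs, so neither sets divergent TCs apart.

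These counts were lower, with no change of direction, without the libraries that stood apart. They were lower without any other single library of the comparison too, so the drop is not particular to those that stood apart. In rrp4-2, 194 rose and 2 fell without replicate 1 of rrp4-2, and 214 rose and none fell without replicate 3 of wt at 30 min. In hen2-4 at 30 min, 172 rose without that wt library. In hen2-4 at 10 min, 155 rose without replicate 1 of hen2-4. Of the 135 divergent TCs that met the limit of 1 TPM on wt libraries alone, a group chosen after its values were seen, 57 rose and 2 fell in rrp4-2 (median 1.02), 41 rose and none fell in hen2-4 at 30 min (median 0.59), and 33 rose and 1 fell in hen2-4 at 10 min (median 0.49). The other 2217 non-gene TCs tested shared much of the pattern, with 939, 761 and 783 higher in rrp4-2, hen2-4 at 30 min and hen2-4 at 10 min (medians 1.23, 1.07 and 0.96), while 574, 308 and 382 of 23712 gene TCs were higher. The difference between divergent and other non-gene TCs was not tested.

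**Figure D2:**
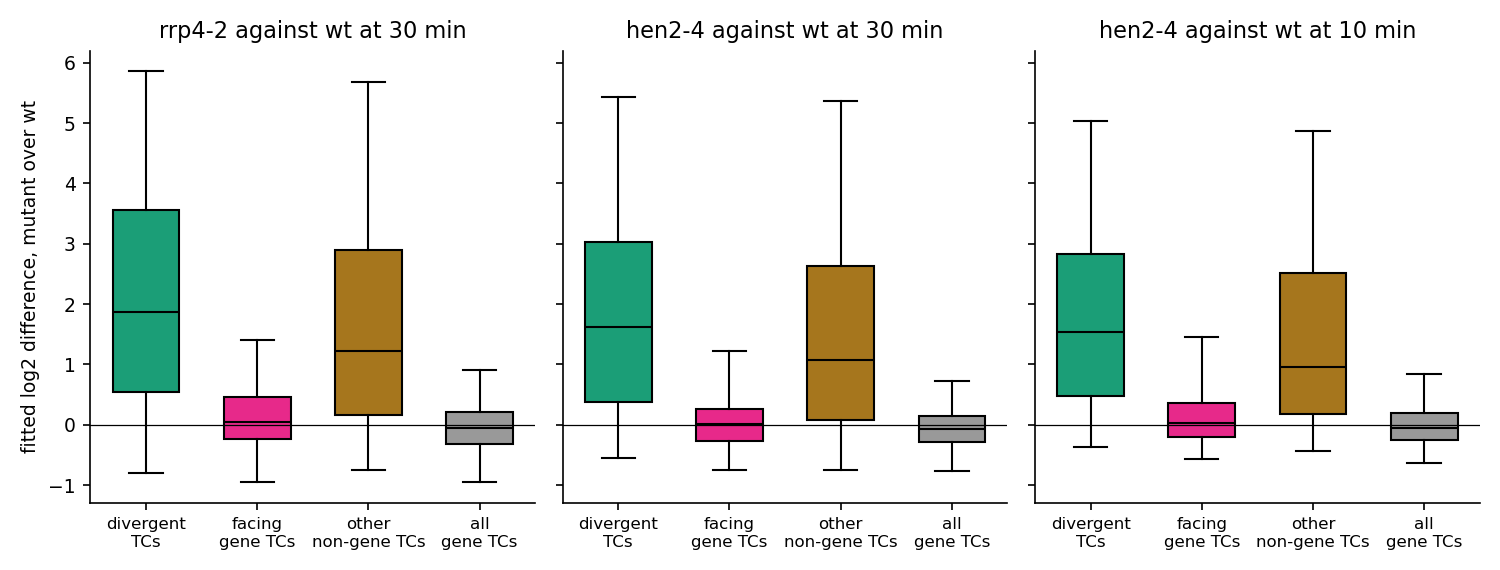
Fitted log2 FC against wt (y axis) of divergent TCs, facing gene TCs, other non-gene TCs and all gene TCs, for rrp4-2 at 30 min, hen2-4 at 30 min and hen2-4 at 10 min. Boxes give the quartiles and whiskers the 5th to 95th percentile over TCs; the divergent TCs have medians of 1.86, 1.62 and 1.54, and the facing TCs have medians of 0.05, 0.01 and 0.03.

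AT3G28140 encodes a protein of the RNA ligase/cyclic nucleotide phosphodiesterase family, and its divergent TC (chromosome 3, 10470044 to 10470301, minus strand) lay 239.5 bp from the gene's TC, in an annotated RNA gene on its own strand, AT3G00460. It stood at 43.3, 39.5 and 40.03 CPM in rrp4-2, 23.4, 35.3 and 36.8 CPM in hen2-4 and 0.208, 0.337 and 0.166 CPM in wt at 30 min. At 10 min it stood at 34.9, 37.1 and 27.8 CPM in hen2-4 and 0.360, 0.182 and 0.324 CPM in wt. The lowest mutant library was thus far above the highest wt library, with a log2 FC of 7.40 in rrp4-2, 7.04 in hen2-4 at 30 min and 6.82 at 10 min (SE 0.295, 0.294 and 0.284, edgeR adjusted p 1.1e-09, 2.2e-09 and 2.1e-09). Here the gene's own TC rose as well, to 34.0, 16.2 and 21.5 CPM in rrp4-2 and 30.0, 25.1 and 25.6 CPM in hen2-4, against 6.49, 6.18 and 2.38 CPM in wt (log2 FC 2.25 and 2.42). In rrp4-2 the divergent TC averaged 40.9 CPM and the TC of the gene 23.9 CPM.

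AT2G18740, which encodes a small nuclear ribonucleoprotein, showed the rise without its gene. Its divergent TC (chromosome 2, 8122852 to 8123033, minus strand) lay 252.5 bp upstream of the annotated start. It stood at 76.0, 58.9 and 56.1 CPM in rrp4-2, 52.3, 51.2 and 80.4 CPM in hen2-4 and 0.831, 1.97 and 0.610 CPM in wt at 30 min. At 10 min it stood at 56.4, 64.5 and 48.5 CPM in hen2-4 and 1.36, 0.910 and 1.29 CPM in wt. The groups did not overlap, with a log2 FC of 5.81 in rrp4-2, 5.75 in hen2-4 at 30 min and 5.57 at 10 min (SE 0.343, 0.343 and 0.337, edgeR adjusted p 3.5e-08, 6.1e-08 and 9.0e-08). The TC of the gene stood at 38.0, 27.7 and 33.5 CPM in rrp4-2 and 31.5, 29.5 and 32.8 CPM in wt, a log2 FC of 0.08 that was not called (adjusted p 0.802). In the mutants the divergent start was the stronger of the pair. Without replicate 2 of wt at 30 min, its highest wt library, the log2 FC was 6.45 in rrp4-2 and 6.39 in hen2-4.

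SOT18 makes the last step of glucosinolate core synthesis, a sulfation. Its divergent TC, on chromosome 1, stood at 5.18, 4.71 and 6.03 CPM in rrp4-2, 7.72, 5.84 and 5.70 CPM in hen2-4 and 0.104, 0.112 and 0 CPM in wt at 30 min, where a count of 0 in a library still allows up to 3 tags. It rose by a log2 FC of 6.07 in rrp4-2 and 6.35 in hen2-4 at 30 min (SE 0.420 and 0.418, edgeR adjusted p 1.8e-07 and 1.3e-07) on 4 wt tags in all, and by 5.00 in hen2-4 at 10 min on 15 wt tags. The gene's TC stood at 24.5 to 31.6 CPM in rrp4-2 and 23.3 to 38.0 CPM in wt and was not called. AAO2 encodes an aldehyde oxidase. Its divergent TC (chromosome 3) stood at 24.6, 21.1 and 19.3 CPM in rrp4-2 and 20.8, 22.9 and 19.0 CPM in hen2-4, against 1.04, 1.12 and 0.333 CPM in wt at 30 min, and rose by 4.69, by 4.64 and, at 10 min, by 4.64. Its gene's TC lay below it in every mutant library, at 3.76 to 5.75 CPM in rrp4-2 and 3.79 to 6.04 CPM in wt.

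**Figure D3:**
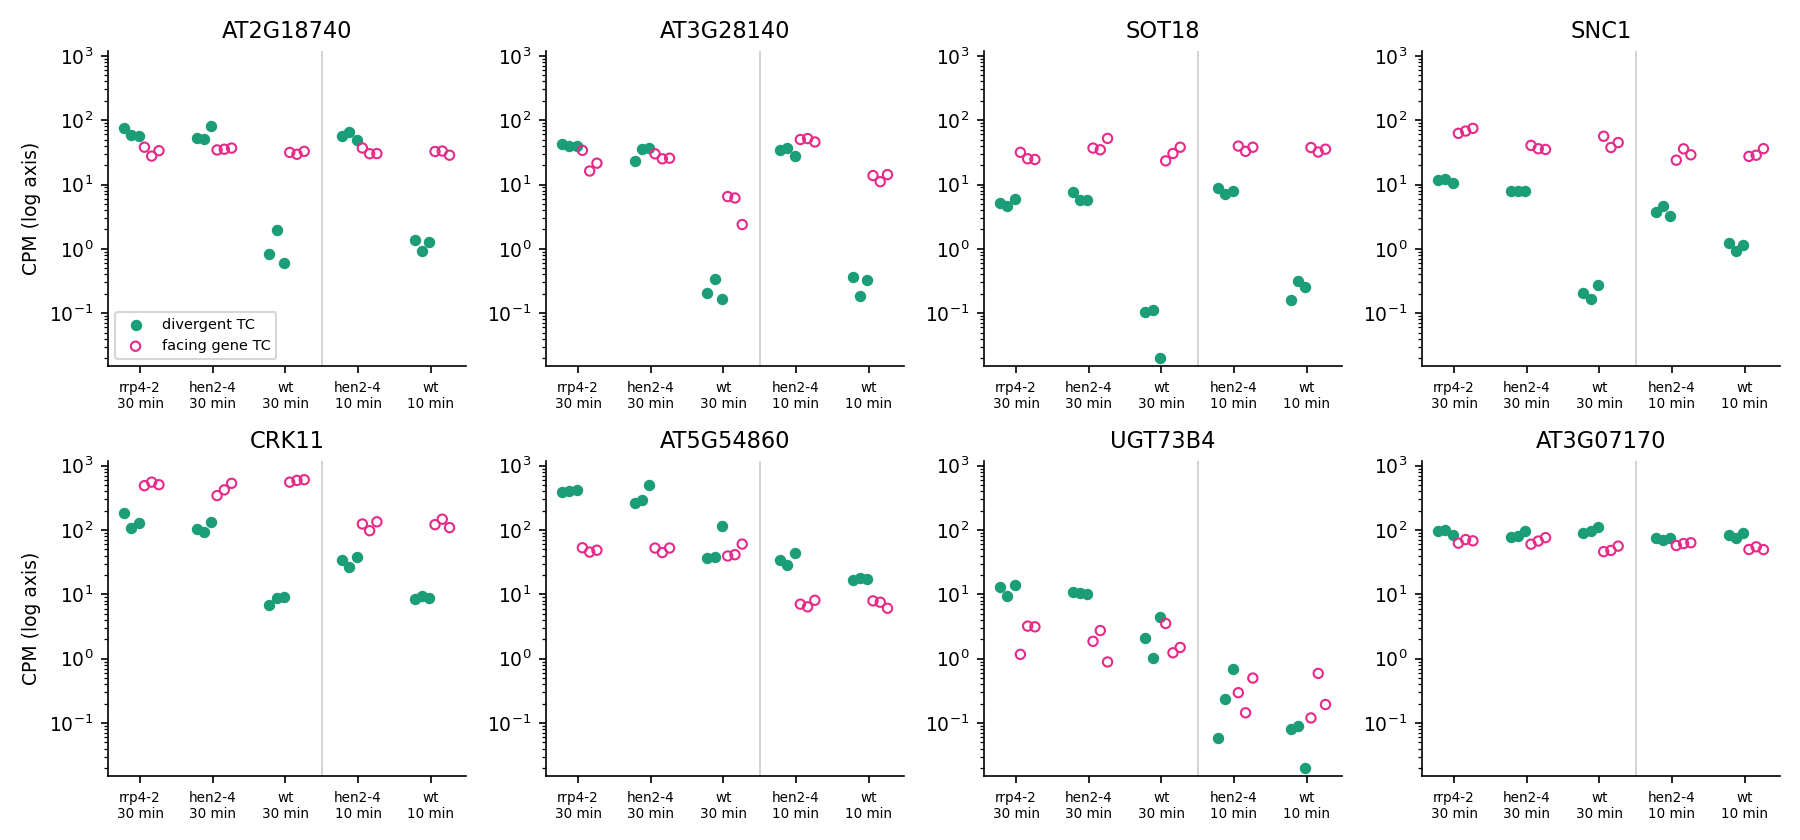
Level in CPM (log axis, values under 0.02 drawn at 0.02) of 8 divergent TCs (filled points) and of the gene TCs they face (open points), by group, 1 point per library. For AT2G18740, AT3G28140, SOT18 and SNC1 the filled mutant points lie above all filled wt points of the same time; for AT3G07170 they overlap.

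The largest rises from few wt tags are ratios with wide counting intervals. The divergent TC of AT3G49140, a gene of the pentatricopeptide repeat superfamily, held 6.96, 6.20 and 8.30 CPM in rrp4-2, 8.32, 4.99 and 7.03 CPM in hen2-4 and 0, 0.112 and 0.055 CPM in wt at 30 min. The ratio of tags per library size was 131 in rrp4-2 (95% counting interval 44.5 to 638) and 121 in hen2-4 (41.1 to 590), on 3 wt tags. CBSX3, a protein with the CBS domains that bind adenosine, had 3.86, 4.66 and 2.36 CPM in rrp4-2 against 0, 0.112 and 0 CPM in wt, a ratio of 100.5 (27.5 to 835). AT2G44070, a gene of the NagB/RpiA/CoA transferase-like superfamily, had 1.93, 3.73 and 2.58 CPM in hen2-4 against 0, 0.056 and 0.055 CPM in wt, a ratio of 78.4 (21.4 to 652). These intervals cover counting error only, and not the limit of 1 TPM, which favours such ratios.

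At 10 min, 2 of the named divergent TCs had no tag in any wt library. That of AT5G60710, a RING zinc finger gene, held 4.92, 0.963 and 1.91 CPM in hen2-4. On tags pooled over these libraries it was at least 50.6-fold higher than a wt level of 3 tags over the group. That of AT5G58375, annotated as methyltransferase-related, held 4.62, 0.722 and 2.77 CPM and was at least 53.7-fold higher by the same floor, also on pooled tags. Replicate 1 was the highest in both, and these bounds do not cover the spread between replicates. PGL1, a 6-phosphogluconolactonase, had 9.13, 1.16 and 0.910 CPM in hen2-4 on 3 wt tags (ratio 69.1, 23.3 to 338), and its replicate 1 carried most of the level. In all, 14 of the TCs that rose in rrp4-2 had no tag in wt at 30 min, as had 12 of those that rose in hen2-4, and 8 of those that rose in hen2-4 at 10 min had none in wt at that time.

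Other named rises faced genes of several roles. PSBW, a small subunit of photosystem II, has a TC at 1276 to 1466 CPM in rrp4-2 and 1212 to 2063 CPM in wt, and beside it the divergent TC stood at 5.79, 3.26 and 4.68 CPM in rrp4-2 against 0, 0.056 and 0.222 CPM in wt (log2 FC 5.56, SE 0.528, edgeR adjusted p 3.6e-06). IRX3 is a cellulose synthase of the secondary wall. Its divergent TC, at 598.5 bp near the limit of the rule, stood at 2.18, 1.63 and 2.56 CPM in rrp4-2 against 0.052, 0.169 and 0 CPM in wt at 30 min (log2 FC 4.75), and at 10 min at 1.66, 2.41 and 2.50 CPM in hen2-4 against 0, 0.046 and 0 CPM in wt, a ratio of 139 on 1 wt tag (24.6 to 5538). FP3, which encodes a farnesylated protein, carried its divergent TC inside the gene, at 2.34, 2.72 and 1.69 CPM in rrp4-2 and 2.13, 2.74 and 3.12 CPM in hen2-4 against 0, 0.169 and 0.055 CPM in wt (log2 FC 4.83 and 5.08). The divergent TC of AT3G51180, a zinc finger gene, lay in a long non-coding RNA gene and rose in rrp4-2 and hen2-4 at 30 min on 3 wt tags (ratios 23.8, 7.86 to 118, and 12.3, 3.92 to 62.1) and by 5.04 in hen2-4 at 10 min. That of AT3G51730 rose in hen2-4 at 10 min (log2 FC 4.65) and was not called in hen2-4 at 30 min (2.11) or in rrp4-2 (1.31), with 20.6, 6.31 and 2.23 CPM in hen2-4 and 0.280, 0.637 and 0.194 CPM in wt. Several of these sizes rest on single libraries. Without replicate 3 of wt at 30 min that of PSBW in rrp4-2 was 7.10, and without replicate 2 of wt at 30 min those of IRX3 and FP3 in rrp4-2 were 6.01 and 6.09. That of AT3G51180 in hen2-4 at 10 min was 4.36 without replicate 1 of hen2-4 and 6.30 without replicate 2 of wt, and its call in hen2-4 at 30 min was lost without replicate 1 of hen2-4 or without any single wt library (edgeR adjusted p 0.0504 to 0.0754). That of AT3G51730 at 10 min was 3.47 without replicate 1 of hen2-4 and 5.27 without replicate 2 of wt.

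Only 3 calls ran the other way in the mutant comparisons, and all lay inside the annotated body of the facing gene. For DRT112, among these, the facing TC was the most used one of its gene. EXT3 encodes an extensin, a glycoprotein of the cell wall, and 2 of its antisense TCs fell in rrp4-2. They stood at 1.22, 0.815 and 0.530 CPM in rrp4-2 against 1.66, 1.74 and 3.55 CPM in wt, and at 1.78, 2.17 and 2.46 CPM in rrp4-2 against 6.39, 3.14 and 5.16 CPM in wt, a fall by 1.44 and by 1.2 (edgeR adjusted p 0.0259 and 0.0254). The second of these 2 TCs also lay in an annotated protein-coding gene on its own strand. DRT112 encodes plastocyanin, the electron carrier of photosynthesis, and its TC fell by 1.50 in hen2-4 at 10 min (0.652, 1.73 and 1.23 CPM in hen2-4 against 4.76, 3.23 and 2.27 CPM in wt, adjusted p 0.0170). Each of these was lost under 5 or more of the alternative settings.

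Between the mutants, no divergent TC was called. In rrp4-2 against hen2-4 at 30 min, 0 of 429 passed the edgeR test, where 0.257% of all TCs passed in either direction. At an unadjusted p under 0.05 there were 80 of 429, beside 3211 of 26504 over all TCs. DESeq2 called 7 higher and 3 lower, limma voom called 3 higher, and a fit of these groups alone called 7. The median log2 FC was 0.26, beside 0.03 over all TCs. Among the TCs named here the smallest edgeR adjusted p was 0.0834, for the antisense TC of EXT3 that also lay in a protein-coding gene on its own strand. It stood at 1.78, 2.17 and 2.46 CPM in rrp4-2 and 5.32, 7.64 and 3.52 CPM in hen2-4 (log2 FC −1.36, SE 0.320). CBSX3, described above, stood at 3.86, 4.66 and 2.36 CPM in rrp4-2 and 1.86, 1.21 and 1.69 CPM in hen2-4 (log2 FC 1.2, SE 0.351, adjusted p 0.179). Neither pair of groups overlapped, although the test was not passed.

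The genes on the other side mostly were not called. Of the 411 facing TCs tested, 32 rose and 2 fell in rrp4-2, 12 rose in hen2-4 at 30 min and 22 at 10 min, with medians of 0.05, 0.01 and 0.03. The shares that rose were 7.79%, 2.92% and 5.35%. Of all gene TCs 2.42%, 1.30% and 1.61% rose, and of all TCs 6.59%, 4.75% and 5.11%. Facing TCs were thus called higher more often than gene TCs as a whole, a difference that was not tested. Among the 233 divergent TCs that rose in rrp4-2, the facing TC rose for 24, fell for none, was not called for 208 and was not tested for 1. Among the 191 that rose in hen2-4 at 30 min it rose for 7 and was not called for 184, and among the 190 at 10 min it rose for 14, was not called for 175 and was not tested for 1. The median log2 FC of the gene beside a risen divergent TC was 0.11, 0.05 and 0.06. AT3G28140 and AT3G51180 were among the pairs that rose together.

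**Figure D4:**
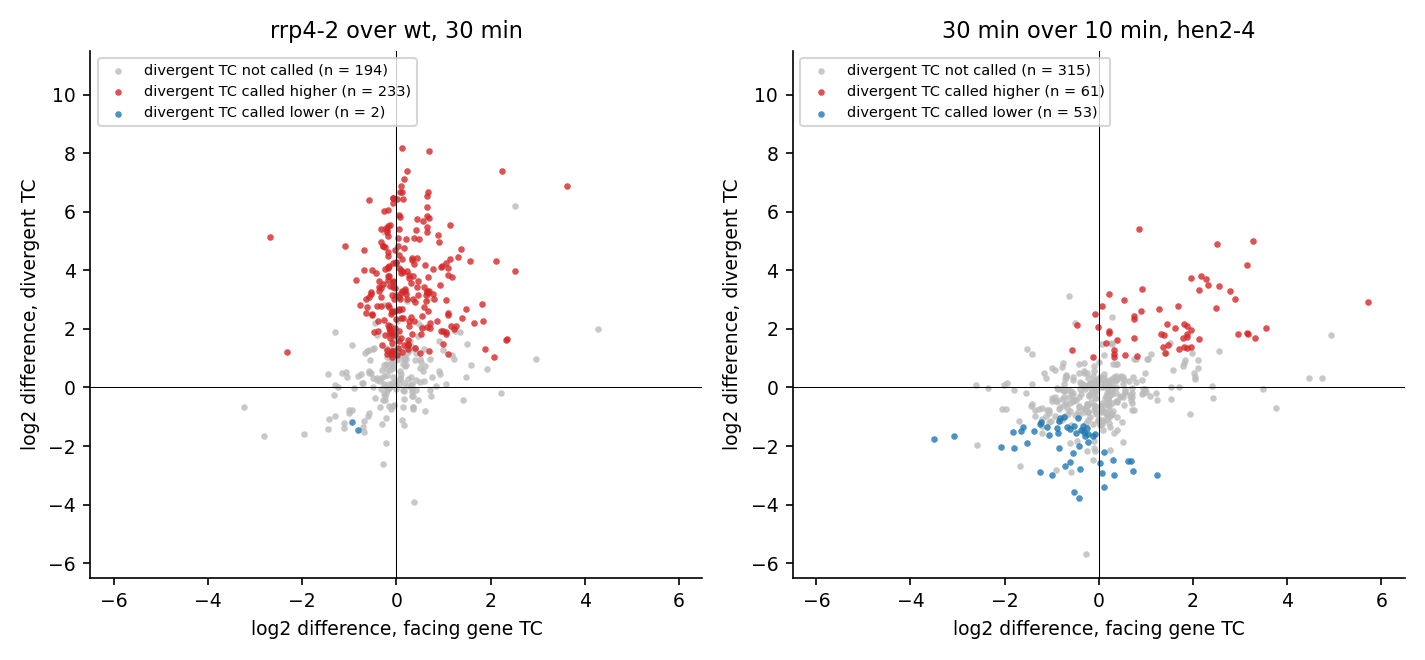
Log2 FC of each divergent TC (y axis) against that of its facing gene TC (x axis), 1 point per divergent TC, for rrp4-2 over wt at 30 min and for 30 over 10 min in hen2-4. Colours mark whether the divergent TC was called higher, lower or not (233, 2 and 194 in the mutant; 61, 53 and 315 over time). In the mutant panel the called points spread upward near 0 on the x axis, and in the time panel 36 of the 61 called higher face a gene TC also called higher.

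The share that rose was lowest among the closest pairs. Outside the gene body, 140 of 256 tested rose in rrp4-2, 115 in hen2-4 at 30 min and 116 at 10 min (medians 1.93, 1.80 and 1.64). Inside it, 93, 76 and 74 of 173 rose (medians 1.78, 1.36 and 1.30). By distance between midpoints, 7 of 31 rose in rrp4-2 within 100 bp, 35 of 67 from 100 to 200 bp, 78 of 128 to 300 bp, 55 of 94 to 400 bp, 28 of 60 to 500 bp and 30 of 49 to 600 bp. Of the 31 closest, 27 lay inside the gene, where the median log2 FC was −0.18. The limit of the rule did not mark an end of the pattern: 24 of 49 rose in hen2-4 and 30 in rrp4-2 just inside it, between 500 and 600 bp (medians 1.80 and 1.95), and 24 and 30 of 56 did just outside it, between 600 and 700 bp (medians 1.38 and 1.48). None of these differences between positions was tested.

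**Figure D5:**
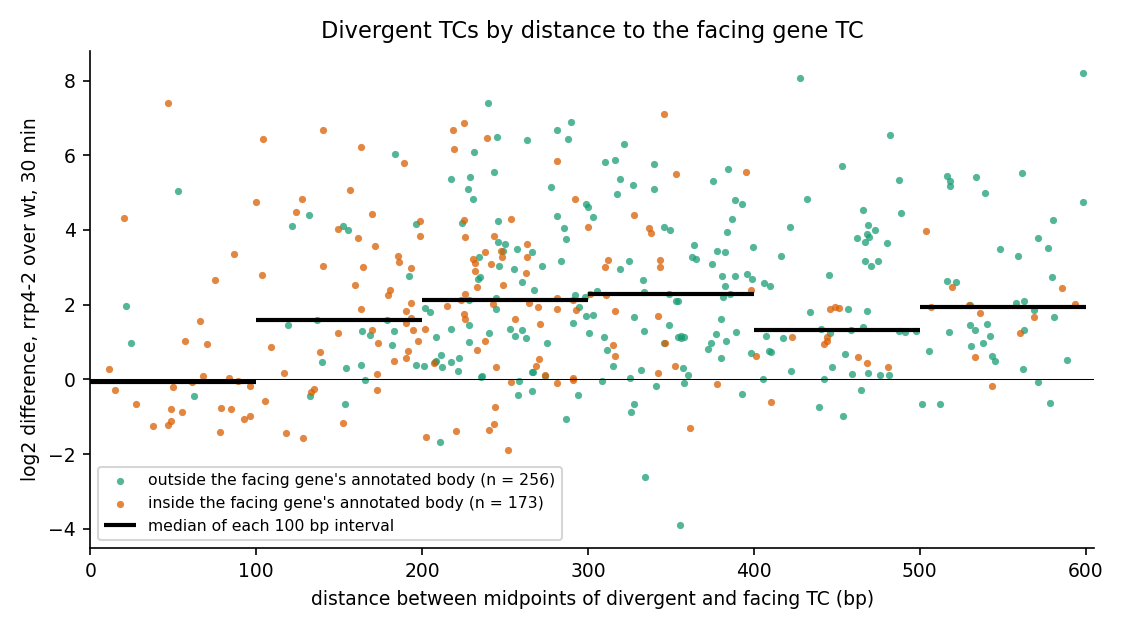
Log2 FC of rrp4-2 over wt at 30 min (y axis) against the distance in bp between the midpoints of the divergent TC and its facing gene TC (x axis), 1 point per divergent TC. Green and orange points are TCs outside (n = 256) and inside (n = 173) the annotated body of the facing gene, and black lines give the median of each 100 bp interval, which is −0.06 within 100 bp and 2.11 from 200 to 300 bp.

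Fewer were called where the own strand carried an annotated gene, a difference that was not tested. Where no gene lay on that strand at or just downstream of the TC, 210 of 356 rose in rrp4-2, 174 in hen2-4 at 30 min and 162 at 10 min. Where one did, 23, 17 and 28 of 73 rose. Among the 18 that lay in a protein-coding gene on their own strand, 2 rose in each comparison and 1, a TC of EXT3, fell in rrp4-2. Among the 18 tested that lay in a long non-coding RNA gene, 7 rose in rrp4-2, 4 in hen2-4 at 30 min and 8 at 10 min.

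Some strong divergent TCs were called in none of the mutant comparisons, and 2 of the 5 most abundant of these lay in a protein-coding gene on their own strand. That facing AT3G07170, a SAM domain gene, lay in AT3G07160, which encodes a glucan synthase-like protein. It stood at 97.5, 98.5 and 83.4 CPM in rrp4-2, 78.8, 80.8 and 95.1 CPM in hen2-4 and 88.7, 96.8 and 111.5 CPM in wt at 30 min (log2 FC −0.09 and −0.22, SE 0.139 each, not called). The TC facing LFR, a protein with ARM repeats, lay in AT3G22980, an elongation factor G family gene, and stood at 21.3, 26.6 and 25.7 CPM in rrp4-2 and 24.7, 18.9 and 20.3 CPM in wt (log2 FC 0.20). AT2G43150, an extensin-like gene, carried an internal one at 10.9, 15.7 and 12.5 CPM in rrp4-2 and 19.4, 15.7 and 14.7 CPM in wt (log2 FC −0.35). The internal TC of PSBP-1, a subunit of the oxygen-evolving complex, had no stable level, with 18.9, 1.49 and 1.40 CPM in rrp4-2, 0.466, 1.62 and 42.5 CPM in hen2-4 and 1.09, 68.8 and 10.8 CPM in wt at 30 min. No group of it stood apart from another.

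RLP30, a receptor-like protein of immunity, faced one of the strongest divergent TCs. It stood at 102.7, 116.7 and 114.0 CPM in rrp4-2, 86.1, 108.9 and 104.6 CPM in hen2-4 and 57.1, 56.3 and 62.0 CPM in wt at 30 min. The groups of mutant and wt libraries did not overlap, and the log2 FC of 0.93 and 0.77 had an edgeR adjusted p of 1.4e-04 and 9.7e-04 but stayed under the limit of 1 in size. UGT73B3, a UDP-glycosyltransferase, had a divergent TC with 63.5, 55.0 and 47.3 CPM in rrp4-2 and 43.4, 48.4 and 42.8 CPM in hen2-4, against 11.5, 12.4 and 2.94 CPM in wt (log2 FC 2.63 and 2.33, SE 0.340 and 0.337). Its facing TC stood at 1.40 to 3.91 CPM in rrp4-2 and 2.13 to 3.49 CPM in wt and was not called.

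The second question was how divergent starts changed between 10 and 30 min of the response. In wt at 30 against 10 min, 42 divergent TCs rose and 47 fell, where 8.25% of all TCs rose and 4.36% fell, and in hen2-4 61 rose and 53 fell (7.29% and 6.32% of all TCs). Medians were −0.25 and −0.21, beside −0.02 over all TCs in both. The other non-gene TCs shared this pattern, with medians of −0.22 in wt and −0.24 in hen2-4. Of them 7.85% rose and 8.98% fell in wt, and 9.34% rose and 12.4% fell in hen2-4. Their difference from the divergent TCs over time was not tested. The split among divergent TCs depends on the scaling. When libraries were scaled by their sizes only, the median of all TCs was −0.28 in wt and −0.29 in hen2-4. Then 35 divergent TCs rose and 65 fell in wt, and 48 rose and 81 fell in hen2-4. Without replicate 3 of wt at 30 min, 37 rose and 34 fell in wt, and without replicate 1 of hen2-4 at 10 min, 48 rose and 28 fell in hen2-4. The genotypes share no library here, and 35 rose in both (of 42 in wt and 61 in hen2-4) while 15 fell in both (of 47 and 53). Such overlaps were not counted over all TCs, so they do not set divergent TCs apart. No untreated library was compared, so a change over time cannot be told apart from one that the handling or the DMSO would give.

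Rising divergent TCs often stood beside rising genes. Of the 42 that rose in wt, the facing TC rose for 26, fell for none and was not called for 16 (median log2 FC 1.56). Of the 61 in hen2-4, it rose for 36 and was not called for 25 (median 1.63). Falling ones mostly faced genes with no call: of the 47 in wt, the facing TC rose for 5, fell for 1 and was not called for 41 (median −0.18), and of the 53 in hen2-4 it rose for 1, fell for 14, was not called for 37 and was not tested for 1 (median −0.55). The facing TCs as a whole rose for 62 and fell for 20 of 411 in wt, and rose for 58 and fell for 33 in hen2-4. In wt these were 15.09% and 4.87%, against 8.31% and 3.84% of all gene TCs. In hen2-4 they were 14.11% and 8.03%, against 7.005% and 5.67%. These differences were not tested.

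UGT73B4, a UDP-glycosyltransferase, had nearly no divergent tags at 10 min. Its divergent TC, whose upstream sequence is shown above, stood at 2.13, 1.01 and 4.44 CPM at 30 min and 0.080, 0.091 and 0 CPM at 10 min in wt, and at 10.9, 10.6 and 10.0 CPM at 30 min and 0.059, 0.241 and 0.682 CPM at 10 min in hen2-4. It rose by 5.18 in wt (SE 0.740, edgeR adjusted p 1.1e-04, 4 tags at 10 min) and 4.91 in hen2-4 (SE 0.556, adjusted p 1.3e-05), and by 4.50 in wt without replicate 3 of wt at 30 min and 5.98 in hen2-4 without replicate 3 of hen2-4 at 10 min. The gene's TC rose too, by 2.76 and 2.51. It remained the weaker of the pair in hen2-4 at 30 min, with 1.86, 2.74 and 0.890 CPM.

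AT5G54860, a transporter of the major facilitator superfamily, faced the divergent TC with the highest mean level of the 438. In hen2-4 this TC (chromosome 5, 22284169 to 22284347, minus strand) stood at 264.4, 295.6 and 505.1 CPM at 30 min and 34.0, 28.7 and 44.8 CPM at 10 min. In wt it stood at 37.0, 38.6 and 117.2 CPM at 30 min and 16.7, 18.2 and 17.3 CPM at 10 min. The log2 FC over time was 3.31 in hen2-4 (SE 0.386) and 1.89 in wt (SE 0.369, edgeR adjusted p 0.00173), and at 30 min the TC was 2.65 higher in rrp4-2 than in wt on the log2 scale (396.6, 397.6 and 414.1 CPM in rrp4-2). Replicate 3 of wt at 30 min stood far above the other wt libraries, and without it the rise in wt was 1.12 (edgeR adjusted p 0.00367) and the difference of rrp4-2 from wt 3.41. Its gene rose alike in both, at 44.7 to 52.6 CPM at 30 min and 6.40 to 8.10 CPM at 10 min in hen2-4 and 39.5 to 60.5 CPM at 30 min and 6.08 to 7.93 CPM at 10 min in wt (log2 FC 2.79 and 2.71).

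CA1 encodes the chloroplast carbonic anhydrase, an abundant leaf enzyme, and its divergent TC lay antisense within the gene. It stood at 8.67, 6.57 and 4.99 CPM at 30 min and 0.480, 0.774 and 0.906 CPM at 10 min in wt, and at 26.1, 27.9 and 36.9 CPM at 30 min and 1.60, 2.79 and 2.00 CPM at 10 min in hen2-4 (log2 FC 3.26 and 3.82, SE 0.289 and 0.260, edgeR adjusted p 8.2e-07 and 9.8e-08). AKN2, an APS kinase of sulfate metabolism, had an internal one that rose by 3.36 in wt and 5.01 in hen2-4, with 12.0, 9.39 and 15.6 CPM at 30 min and 0.711, 0.193 and 0.273 CPM at 10 min in hen2-4. In wt it stood at 1.92, 2.02 and 6.82 CPM at 30 min and 0.561, 0.273 and 0.129 CPM at 10 min, and the rise there was 2.50 without replicate 3 at 30 min and 4.05 without replicate 1 at 10 min (edgeR adjusted p 0.00107 and 0.00116). Without replicate 1 of hen2-4 at 10 min the rise in hen2-4 was 5.69. AT1G11320, a GDSL esterase/lipase gene, had one that rose by 2.65 in wt (1.91 without replicate 3 of wt at 30 min) and 4.18 in hen2-4 (5.52 without replicate 3 of hen2-4 at 10 min), and AT3G01560, annotated as a proline-rich receptor-like kinase, one that rose by 3.74 in hen2-4 and in wt had a ratio of 30 over 10 min of 51.0 on 1 tag at 10 min (95% counting interval 8.69 to 2057). The TC facing AT1G71530, a protein kinase gene, rose by 3.64 and 3.20 while the gene's own TC was not called. AT1G15415, annotated as LEA-like, had one within its annotated body, close to the start, that stood at 1.87, 0.449 and 0.388 CPM at 30 min and 0.080, 0.046 and 0.129 CPM at 10 min in wt and rose by 3.40 there (SE 0.803, edgeR adjusted p 0.00691). Replicate 1 at 30 min was the highest, and without it the log2 FC was 2.29 and the call was lost (adjusted p 0.0502). It was also lost with limma voom (0.0646) and with limma on log2(TPM + 1) (0.136), and over all alternatives the adjusted p ran from 0.00054 to 0.136. That of RLP30 rose by 1.23 in wt and 1.40 in hen2-4, beside a gene that rose by 1.52 and 1.36.

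The largest named falls came from TCs with few tags at 30 min in wt. The divergent TC of AT2G29290, an oxidoreductase of the NAD(P)-binding Rossmann fold, stood at 0, 0.056 and 0 CPM at 30 min and 0.320, 0.137 and 0.518 CPM at 10 min in wt and fell (edgeR adjusted p 0.00417), with a ratio of 30 over 10 min of 0.0596 on 1 tag at 30 min (95% counting interval 0.00143 to 0.375). That of AT5G62570, a calmodulin-binding protein-like gene, stood at 0.363, 0.056 and 0.111 CPM at 30 min and 1.88, 2.50 and 1.42 CPM at 10 min and fell by 3.39, or by 4.44 without replicate 1 at 30 min. AT5G46450, an immune receptor gene of the TIR-NBS-LRR class, had a fall by 3.14 in wt and by 2.84 in hen2-4. The call in wt was lost with limma voom and with limma on log2(TPM + 1) (adjusted p 0.0837 and 0.0835, in a range from 0.00066), and the fall there was 4.03 without replicate 1 at 30 min. In hen2-4 at 10 min replicate 1 was the highest, with 16.6, 4.53 and 4.19 CPM, and without it the TC fell by 1.89 (edgeR adjusted p 0.00953). CBSX3, with 2 tags at 30 min and 19 at 10 min in wt, had a ratio of 30 over 10 min of 0.119 there (95% counting interval 0.0135 to 0.494) and fell by 1.54 in hen2-4, and its call in wt was lost without replicate 3 at 30 min (edgeR adjusted p 0.0540). The gene's own TC was called over time neither for AT5G46450 nor for CBSX3.

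In hen2-4 several of the named falls came with a high replicate 1 at 10 min. The divergent TC of AT3G51730, a saposin B domain gene, stood at 0.599, 0.944 and 0.846 CPM at 30 min and 20.6, 6.31 and 2.23 CPM at 10 min in hen2-4 and fell by 3.57 (SE 0.639, edgeR adjusted p 9.7e-04). PGL1 had a fall by 3.38, PSL4 (annotated as a calmodulin-binding protein) by 2.99 and AT1G35255 (of unknown role) by 2.89. Their 10 min values in hen2-4 were 9.13, 1.16 and 0.910 CPM, 33.2, 4.62 and 5.00 CPM, and 27.6, 4.48 and 8.19 CPM. Replicate 1 was the highest in each. Without it AT3G51730 fell by 2.39 and PSL4 by 1.43 (edgeR adjusted p 0.00583 and 0.0482), while PGL1 (log2 FC −1.55, adjusted p 0.182) and AT1G35255 (−1.82, 0.196) were not called. The call of AT1G35255 was also lost without any single hen2-4 library at 30 min (adjusted p 0.0539 to 0.103), and that of PGL1 without replicate 2 at 30 min (0.0515).

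Some divergent TCs moved one way in wt and the other way in hen2-4, and 1 passed the test of that difference. SNC1 encodes a TIR-NBS-LRR immune receptor. Its divergent TC (chromosome 4, 9506078 to 9506268, plus strand) stood at 8.05, 7.86 and 8.01 CPM at 30 min and 3.68, 4.67 and 3.28 CPM at 10 min in hen2-4, and at 0.208, 0.169 and 0.277 CPM at 30 min and 1.24, 0.910 and 1.17 CPM at 10 min in wt. It rose by 1.04 in hen2-4 (SE 0.195, edgeR adjusted p 0.00140) and fell by 2.31 in wt (SE 0.296, adjusted p 3.6e-05), and the difference of 3.35 (SE 0.354, adjusted p 0.00179) was the single call among all 26504 TCs, 0.00377% of them. At an unadjusted p under 0.05 there were 55 of 429 divergent TCs, beside 1505 of 26504 over all TCs. Without replicate 3 of wt at 30 min, 3 divergent TCs were called. The TC of SNC1 itself stood at 40.5, 36.0 and 35.1 CPM in hen2-4 and 56.2, 37.6 and 44.9 CPM in wt at 30 min and was not called over time in either. Without replicate 3 of hen2-4 at 10 min the rise of the divergent TC in hen2-4 was 0.91, under the limit of 1 in size. In rrp4-2 at 30 min the divergent TC stood at 11.8, 12.4 and 10.7 CPM (log2 FC 5.70 over wt, SE 0.269, adjusted p 4.8e-09).

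The divergent TCs of WAKL2, AT2G37110 and CRK14 were also called in opposite directions over time, with an adjusted p of the difference of 0.148, 0.0875 and 0.0880, which did not pass. CRK14 is a cysteine-rich receptor-like kinase. Its divergent TC fell by 1.60 in wt (0.519, 0.281 and 0.943 CPM at 30 min, 2.08, 1.32 and 1.94 CPM at 10 min) and rose by 1.47 in hen2-4 (11.1, 9.97 and 15.8 CPM at 30 min, 4.21, 3.32 and 5.78 CPM at 10 min), while its gene rose by 3.11 in wt. The wall-associated kinase-like gene WAKL2 rose by 2.29 in wt and its 2 divergent TCs fell there by 1.07 and by 1.93. CRK11, another cysteine-rich receptor-like kinase, had a divergent TC at 102.1, 94.1 and 133.3 CPM at 30 min and 34.5, 26.6 and 38.3 CPM at 10 min in hen2-4, and at 6.85, 8.87 and 9.15 CPM at 30 min and 8.41, 9.61 and 8.67 CPM at 10 min in wt. It rose by 1.73 in hen2-4 and was not called in wt (log2 FC −0.10), and the difference of 1.83 did not pass (adjusted p 0.0875). The gene rose in both, by 1.86 and 2.21.

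Genes of disease resistance were more frequent by product name among those faced than in the whole table, a theme chosen after the values were seen and not tested. The words "disease resistance" were in the RefSeq product of 12 of 384 facing genes, 3.12%, against 0.725% of the genes of the count table with a product. Photosystem or chlorophyll words were in 2.87% against 0.430%, extensin in 1.56% against 0.212%, transcription factor in 2.60% against 1.40%, and kinase in 6.51% against 5.53%. Other words went the other way: glycosyl was in 1.04% against 1.27%, ribosom in 1.82% against 2.075% and peroxidase in 0.260% against 0.430%. Of the 12 resistance genes, 10 faced a divergent TC that rose in rrp4-2, a share to be read beside the 233 of 429 above. Those of AT1G63350 (log2 FC 0.04) and AT1G15890 (0.56) were not called.

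Several of the resistance genes lie in clusters of close copies. RPP5, which gives resistance to downy mildew, had a divergent TC at 4.01, 4.26 and 3.62 CPM in rrp4-2 against 0.052, 0.056 and 0 CPM in wt at 30 min, a ratio of 109 on 2 wt tags (95% counting interval 29.9 to 907). RPP4 of the same cluster had 1.93, 1.95 and 1.16 CPM in rrp4-2 and no tag in wt at 30 min. AT4G16880, a leucine-rich repeat gene of that cluster, carried an antisense TC at 13.1, 10.8 and 11.3 CPM in rrp4-2 and 7.52, 7.46 and 7.39 CPM in hen2-4 against 0.312, 0.169 and 0.277 CPM in wt (log2 FC 5.49 and 4.84). LOV1, an NB-ARC gene on chromosome 1, had 7.92, 7.47 and 8.34 CPM in rrp4-2 against 0.831, 1.01 and 0.776 CPM in wt (log2 FC 3.17). Tags of 25 bases that map once cannot count sequence that copies share, so the values of RPP4, RPP5, SNC1, AT4G16880, the CRK genes and the UGT73B genes are uncertain in level.

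Of the genes on lists of known roles, 3 of 77 faced a divergent TC, as did 395 of all 18934 genes of the count table, and these counts are too small to set apart. Of 14 heat genes 1 faced a divergent TC, as did 1 of 28 immune genes (SNC1) and 1 of 9 photosynthesis genes, and none of 10 clock genes, 11 RNA decay genes or 5 RNA polymerase II genes did. The heat gene was HSP90.1, a chaperone whose own TC rose by 5.51 in wt and 4.92 in hen2-4 over time. Its divergent TC stood at 1.09, 0.337 and 0.166 CPM at 30 min and 0, 0.091 and 0.065 CPM at 10 min in wt, and was called in no comparison. The photosynthesis gene was LHCA1, a light-harvesting protein of photosystem I. Its divergent TC held 32 tags in rrp4-2, 12 in hen2-4 and 1 in wt at 30 min and was not tested.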

How the data were processed

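CAGE libraries were made from 5 µg of total RNA. According to the methods, the authors kept the first 25 bases of each read, mapped them to TAIR10 with Bowtie 1.1.2, summed the 5′ ends of reads that map once, joined ends within 20 bp on 1 strand into TCs with CAGEfightR and kept TCs with 1 TPM or more in at least 3 libraries. The deposited tables hold counts of tags per TC and per gene, not normalised, and TPM that the authors scaled to 1 M tags per library. Each table also held 9 columns that matched no labelled sample, which were not used. Sequence that maps more than once is not counted, and starts used little in every library were removed before any test.

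The count test was quasi-likelihood edgeR 4.0.16 (R 4.3.3, TMM factors, filterByExpr, 1 coefficient per group, all 15 libraries), with limma 3.58.1 and DESeq2 1.42.0 as alternatives, and p-values were adjusted over 26504 TCs and not over the divergent TCs alone. CPM are counts over TMM-adjusted library sizes, and FC are fitted values with SE. Where a group held 1 to 3 tags in all, the ratio of tags is given with a 95% counting interval, and where it held none, a lower bound against 3 tags. In simulated counts for hen2-4 against wt at 30 min, 84 of 100 TCs changed 4-fold and 23 of 100 changed 2-fold were called, with 7 false calls and 26358 TCs tested. The changed TCs were drawn from all TCs and given the spread of the fitted trend. Divergent TCs are weaker than most TCs and some have libraries that stand apart, so these rates are not theirs.

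The divergent TCs, the gene lists and the tests were chosen with earlier results of these data known, and the product words and the TCs above the limit in wt were chosen after their values were seen. TCs were named by the facing gene and by rule: in each mutant comparison the 6 largest rises and 3 largest falls among called TCs with a mean of 1 CPM and over 3 wt tags, and the 3 strongest with 3 or fewer; in each time comparison the 4 largest rises and falls; the 6 most abundant, the 5 most abundant called in no mutant comparison, those called between the mutants or between the time responses, and those facing a listed gene. The resistance genes, CRK14, WAKL2 and AT2G37110 were named after their values were seen. Coordinates and sequences were read from the RefSeq assembly TAIR10.1 (nuclear chromosomes as long as in TAIR10). Alternatives were other scalings and filters, DESeq2, limma on counts and on log2(TPM + 0.1) and log2(TPM + 1), fits of the compared groups alone, each replicate left out, a replicate block, and narrower membership. Python 3.11.15 with pandas 2.3.3, numpy 2.4.6, scipy 1.17.1 and matplotlib 3.10.9 was used.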

Additional observations from a re-analysis of the deposited data

Results flagged for a closer look

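The divergent TC of SNC1 differed between genotypes in its change from 10 to 30 min, by a log2 difference of 3.35 between hen2-4 and wt (edgeR interaction term, adjusted p 0.00179 over 26504 TCs). All 3 hen2-4 libraries at 30 min (7.86 to 8.05 CPM) lay above all 3 at 10 min (3.28 to 4.67 CPM), and all 3 wt libraries at 30 min (0.169 to 0.277 CPM) lay below all 3 at 10 min (0.910 to 1.24 CPM). Over the alternative settings its adjusted p ran from 3.5e-06 to 0.058, and limma voom was the setting that lost it. SNC1 lies in a cluster of close copies, so its level is uncertain in tags that map once.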

How the results depend on the processing

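Of 75 results on named TCs, called or not, no called one changed direction under any alternative, and 63 changed their call under none. The 75 cover only the comparisons tied to the rule that named each TC. Calls outside them were also lost when a single library was left out. Among these were PGL1 over time in hen2-4, AT3G51180 in hen2-4 at 30 min and the rise of SNC1 in hen2-4. The balance of rises and falls over time did turn: in wt 42 rose and 47 fell, but 38 and 34 with voom, 14 and 13 with log2(TPM + 1), 23 and 21 in a fit of the compared groups, and 39 and 37, 41 and 40, and 37 and 34 without replicate 1, 2 or 3 at 30 min. In hen2-4 61 rose and 53 fell, but 48 and 81 with library sizes alone, 49 and 81 with log2(TPM + 0.1) and 28 and 37 with log2(TPM + 1). Calls among divergent TCs in rrp4-2, hen2-4 at 30 min and hen2-4 at 10 min, 235, 191 and 191, became 145, 100 and 127 with limma on log2(TPM + 1), 122, 96 and 98 at midpoints within 300 bp (median log2 FC in hen2-4 at 30 min 1.44), 134, 112 and 106 at a mean of 1 CPM or more, and 140, 115 and 116 outside the gene body. With no annotated gene on the own strand they were 211, 174 and 162. The 89 and 114 calls over time in wt and hen2-4 became 27 and 65 with log2(TPM + 1) and 44 and 50 within 300 bp; they became 69 in hen2-4 at a mean of 1 CPM, and 44 in wt in a fit of the compared groups. Library sizes alone gave medians of 2.00 in rrp4-2, −0.49 in wt and −0.48 in hen2-4 over time. Calls between the mutants, 0, became 10 with DESeq2, 1 with RLE factors, 1 with library sizes alone, 3 with voom, 4 with log2(TPM + 1), 1 with no filter and 7 in a fit of these groups. The 1 interaction call became 6 with DESeq2, 0 with voom, 3 with log2(TPM + 1), and 0 within 300 bp. Facing TCs called, 34, 12, 22, 1, 82 and 91 in rrp4-2, hen2-4 at 30 min, hen2-4 at 10 min, rrp4-2 over hen2-4, wt over time and hen2-4 over time, became 19 in rrp4-2 and 6 in hen2-4 at 30 min with log2(TPM + 1), 12 in hen2-4 at 10 min, 42 in wt and 50 in hen2-4 over time within 300 bp, and 20, 6 and 3 in rrp4-2, hen2-4 at 30 min and rrp4-2 over hen2-4 in fits of the compared groups. With 1 replicate left out, calls were 196 to 223 in rrp4-2, 157 to 172 in hen2-4 at 30 min, 138 to 175 at 10 min, 0 to 0 between the mutants, 67 to 81 in wt and 75 to 104 in hen2-4 over time, and 1 to 3 in the interaction; hen2-4 over time had 75 without replicate 2 of hen2-4 at 30 min and 76 without replicate 1 at 10 min. For facing TCs they were 22 to 36, 10 to 12, 12 to 20, 0 to 1, 70 to 90 and 67 to 87 in the order above, with 22 in rrp4-2 without its replicate 3 and 12 and 14 in hen2-4 at 10 min without replicates 1 and 3 of wt. Same-numbered replicates did not deviate together (r −0.35 to 0.39), so they share only a number. With a replicate block, calls were 229, 180, 177, 0, 83, 107 and 2 in rrp4-2, hen2-4 at 30 min, hen2-4 at 10 min, rrp4-2 over hen2-4, wt over time, hen2-4 over time and the interaction. The cause of these differences was not tested. Among the 75 results, calls lost under some settings were the falls of both EXT3 TCs and of DRT112, the falls over time of AT1G35255, AT2G29290, AT5G46450 and CBSX3, the rises over time of AT1G15415 and AT3G01560, and the interaction of SNC1; RLP30 in rrp4-2 and AT5G54860 in hen2-4 at 10 min were gained. A level near 0.05 CPM is 1 tag in a library, so low TCs can be compared only where the mutants are far above it.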
